A study of Mus musculus with 12 samples.

Results

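The genes described are 32 genes of the smooth muscle contractile apparatus, taken from a list of gene symbols, with the brightest feature standing for a gene that has several. All 32 were measured, out of 19938 genes tested. They were followed in whole mouse duodenum, the first stretch of the small intestine, as a readout of its muscle coat. The animals were of strain 129 and were either wild type or carried an ablated Onecut2 gene, the gene of a DNA-binding cut homeodomain protein. Wild type day 15, wild type day 30, knockout day 15 and knockout day 30 (postnatal days) had 3 arrays each, 12 in all. Each array held RNA of mixed sex pooled from 5 to 8 mice, no animal was treated, and the sources used here do not say how the Onecut2 allele was made. Values are log2 expression values per gene, 1 unit being a 2-fold difference, and the array medians over all features lay between 7.20 and 7.25. The study asked how duodenal expression differs between these ages, before and after weaning, and between the genotypes.

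Smooth muscle forms the circular and longitudinal layers and the thin muscularis mucosae of the gut wall, and drives peristalsis and mixing. Calcium entering through voltage-gated channels activates myosin light chain kinase, phosphorylated myosin pulls on actin filaments, and myosin phosphatase, held in check or released by other kinases, ends the contraction. Thin filaments are anchored at dense bodies and adhesion plaques, and a desmin-based filament net ties these together. Serum response factor, with its cofactor myocardin, binds CArG boxes near many of these genes.

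The CArG box was looked for in the 250 bases before each annotated start site, since this regulator binds it near many of these genes. RefSeq promoter sequences (GRCm38.p6) were matched for 28 of the 32 genes. Myh11, Actg2, Tagln and Myocd had no entry. An exact CArG box stood before a start of 4 of the 28 genes (14.3%), namely Myl9, Vcl, Srf and Filip1l, against 1.62% of 27025 genes in the table. A form with 1 G or C among the 6 central bases stood before 5 of the 28 (17.9%, against 8.33%), namely Acta2, Myl9, Pdlim3, Synm and Cacna1c. The pattern reads alike on both strands. The stretches below are shown because they carry the matches, in capitals, of 3 genes called lower with age in both genotypes and 2, Srf and Filip1l, that were not called lower in wild type. Acta2 lies at chr19:34255374-34255493 (minus strand), Myl9 at chr2:156775279-156775398 (plus), Vcl at chr14:20929148-20929267 (plus), Srf at chr17:46556170-46556289 (minus) and Filip1l at chr16:57549122-57549241 (plus), each 120 bases long and within its promoter.
Acta2: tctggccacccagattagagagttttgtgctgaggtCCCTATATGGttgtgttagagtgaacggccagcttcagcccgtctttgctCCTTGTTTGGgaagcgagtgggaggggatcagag
Myl9: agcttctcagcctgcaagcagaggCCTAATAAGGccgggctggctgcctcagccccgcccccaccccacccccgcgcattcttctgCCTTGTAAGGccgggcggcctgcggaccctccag
Vcl: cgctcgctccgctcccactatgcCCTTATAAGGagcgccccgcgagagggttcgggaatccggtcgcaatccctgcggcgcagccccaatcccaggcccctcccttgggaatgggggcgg
Srf: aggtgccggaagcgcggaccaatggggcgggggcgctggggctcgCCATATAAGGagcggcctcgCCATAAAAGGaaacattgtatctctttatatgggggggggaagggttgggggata
Filip1l: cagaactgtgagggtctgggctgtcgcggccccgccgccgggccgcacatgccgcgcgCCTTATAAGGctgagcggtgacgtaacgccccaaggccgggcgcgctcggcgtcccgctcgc
No match shown overlaps another. Acta2 holds 2 inexact boxes, Myl9 1 exact and 1 inexact box, Srf 2 exact boxes, and Vcl and Filip1l 1 exact box each. Filip1l has another annotated start without a match. A match is a description of the letters and not a measured binding site.

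The checks of the samples were as follows. Onecut2 itself read 9.55, 9.69 and 9.68 in wild type and 8.09, 8.13 and 8.20 in knockout at day 15 (a change of -1.50, limma adjusted p = 2.0e-08), and was lower in knockout at day 30 as well (log2 change -1.36 ± 0.059 SE, limma adjusted p = 8.8e-08). Where its probes lie relative to the ablated part was not analysed here. The duodenal markers Pdx1 and Cdx2 had group means of 9.75 to 10.43 and 9.73 to 9.90. Markers of striated muscle, which the segment should lack, had list means per array of 6.63 to 6.87 over 12 genes. Those of the mesothelium covering the gut had means of 7.73 to 7.93 over 6 genes, among them Krt19, which epithelium also makes. Replicates were separate pools of animals, so p-values measure the spread between pools. Within groups the genes had a median SD of 0.0954, beside 0.0947 over all genes.

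Most muscle genes fell between day 15 and day 30 in wild type duodenum. Of the 32 genes, 28 were lower at day 30, 1 was higher and 3 were not called, with a median log2 fold change of -0.60 against 0.022 over all genes (limma, adjusted p below 0.05 over all genes tested). Over all genes, 29.3% were called, 17.0% lower and 12.3% higher. The ages did not overlap for 28 genes that were lower and 1 that was higher, against 23.1% and 20.7% of all genes. The mean over the 32 genes read 9.83, 9.86 and 9.94 at day 15 and 9.19, 9.33 and 9.26 at day 30, so every day 30 array lay below every day 15 array. Because the RNA comes from whole tissue, a smaller share of muscle cells and less of these RNAs per muscle cell cannot be told apart.

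**Figure D1:**
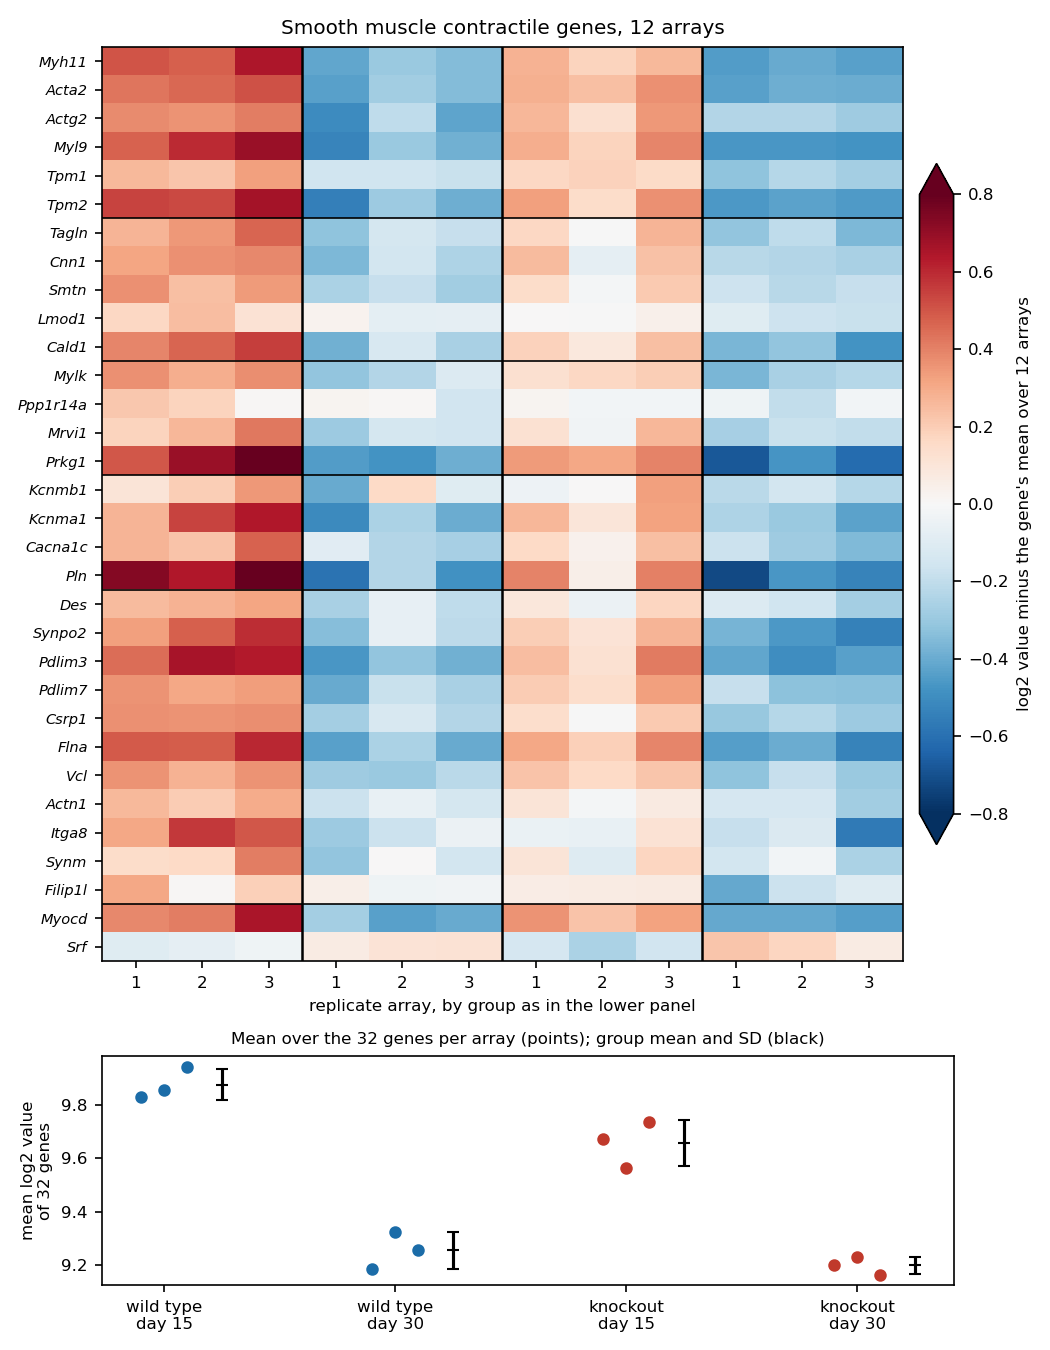
Upper panel: each of the 32 genes (rows, grouped by role with black lines) on each of the 12 arrays (columns, 3 per group), coloured by its log2 value minus its mean over the 12 arrays. Lower panel: the mean log2 value of the 32 genes per array (points) with the group mean and SD (n = 3). In each genotype 31 of the 32 genes had a lower mean at day 30, all but Srf. The means per array run from 9.83 to 9.94 in wild type and from 9.57 to 9.74 in knockout at day 15, and from 9.16 to 9.33 at day 30.

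All 6 motor and thin filament genes fell. Myh11, the smooth muscle myosin heavy chain, read 12.42, 12.39 and 12.56 at day 15 and 11.50, 11.62 and 11.56 at day 30 (log2 change -0.90 ± 0.059 SE, limma adjusted p = 2.3e-07). Acta2, alpha smooth muscle actin, read 12.91, 12.94 and 12.99 and then 12.04, 12.20 and 12.13 (log2 change -0.82 ± 0.057 SE, limma adjusted p = 3.3e-07). Actg2, the enteric gamma actin that predominates in gut muscle, read 11.65, 11.64 and 11.69 and then 10.77, 11.07 and 10.86 (log2 change -0.76 ± 0.077 SE, limma adjusted p = 8.6e-06). In each of these genes every day 30 array lay below every day 15 array, and the day 30 levels were 0.537, 0.566 and 0.592 of those at day 15. Both actins are near-identical in their coding parts, and whether their features share signal was not tested. Myl9, the regulatory myosin light chain that the kinase phosphorylates, read 11.77, 11.90 and 11.99 and then 10.77, 11.00 and 10.91 (log2 change -0.99 ± 0.077 SE, limma adjusted p = 8.5e-07). Tpm2, beta tropomyosin, changed by nearly as much (log2 change -0.99 ± 0.076 SE, limma adjusted p = 8.2e-07). Its relative Tpm1, alpha tropomyosin, had a smaller fall (log2 change -0.43 ± 0.049 SE, limma adjusted p = 2.3e-05).

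The 5 regulators of the thin filament also fell. Cald1, caldesmon, which restrains actomyosin, read 10.31, 10.38 and 10.47 at day 15 and 9.54, 9.79 and 9.66 at day 30 (log2 change -0.73 ± 0.076 SE, limma adjusted p = 1.1e-05). Cnn1, calponin, fell by 0.61, Tagln, the actin-bundling transgelin, by 0.58, and Smtn, smoothelin, by 0.55 on the log2 scale (limma adjusted p = 9.6e-05, 1.2e-04 and 2.6e-05). Lmod1, the actin nucleator leiomodin, read 7.86, 7.95 and 7.81 and then 7.72, 7.62 and 7.62, the smallest fall of the 5 (log2 change -0.22 ± 0.055 SE, limma adjusted p = 0.0093). That call ended under quantile normalization over the tested genes (adjusted p = 0.061).

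Among the genes that set myosin phosphorylation, Mylk, the light chain kinase, read 10.76, 10.69 and 10.77 at day 15 and 10.08, 10.16 and 10.29 at day 30 (log2 change -0.56 ± 0.062 SE, limma adjusted p = 1.9e-05). Prkg1, the cyclic GMP-dependent kinase through which nitric oxide relaxes muscle, read 8.21, 8.41 and 8.57 and then 7.27, 7.24 and 7.33 (log2 change -1.12 ± 0.083 SE, limma adjusted p = 6.4e-07). That is 0.462 of its day 15 level. Its substrate Mrvi1, which dampens calcium release, fell by 0.48 (limma adjusted p = 6.1e-04). Ppp1r14a, an inhibitor of myosin phosphatase, read 8.13, 8.10 and 7.93 and then 7.94, 7.93 and 7.76, overlapping values that were not called (log2 change -0.18 ± 0.072 SE, limma adjusted p = 0.087).

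Of the calcium and potassium handling genes, Pln, phospholamban, the brake of the calcium pump of the sarcoplasmic reticulum, had the largest fall of all 32. It read 8.69, 8.60 and 8.76 at day 15 and 7.37, 7.73 and 7.48 at day 30 (log2 change -1.16 ± 0.11 SE, limma adjusted p = 5.7e-06). Cacna1c, the pore of the L-type calcium channel, fell by 0.52 and Kcnma1, the pore of the large-conductance potassium channel, by 0.87 on the log2 scale (limma adjusted p = 3.0e-04 and 2.2e-05). Kcnma1 has another, dimmer feature, with a mean of 5.01 over the 12 arrays, whose change was 0.062, so the fall rests on 1 of 2 features. Kcnmb1, the beta subunit of that channel, read 7.77, 7.87 and 8.02 and then 7.27, 7.83 and 7.57, with wild type replicate 2 at day 30 inside the day 15 range, and was not called (log2 change -0.33 ± 0.13 SE, limma adjusted p = 0.074).

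Of 11 genes of the desmin net, dense bodies and adhesions, 10 fell. Des, desmin, the muscle intermediate filament, read 10.55, 10.57 and 10.60 at day 15 and 10.03, 10.23 and 10.09 at day 30 (log2 change -0.46 ± 0.071 SE, limma adjusted p = 2.7e-04). Its partner Synm, synemin, fell by 0.39 (limma adjusted p = 0.011), a call that ended without wild type replicate 3 at day 15 (0.059) or replicate 1 at day 30 (0.054). Flna, the actin cross-linker filamin A, read 11.94, 11.93 and 12.05 and then 11.01, 11.19 and 11.05 (log2 change -0.89 ± 0.070 SE, limma adjusted p = 9.8e-07). Pdlim3, which binds alpha-actinin, read 10.26, 10.47 and 10.44 and then 9.34, 9.49 and 9.42 (log2 change -0.97 ± 0.080 SE, limma adjusted p = 1.4e-06). These were the steepest of the group, whereas Actn1, alpha-actinin itself, changed by -0.38. Synpo2, an actin-bundling protein, Itga8, the integrin alpha8 chain, Pdlim7, a PDZ and LIM protein, Vcl, the adhesion plaque protein vinculin, and Csrp1, a LIM protein, had log2 fold changes of -0.67, -0.63, -0.61, -0.60 and -0.58, all called. Filip1l, a filamin-interacting protein, read 9.37, 9.07 and 9.26 and then 9.11, 9.03 and 9.04 and was not called (log2 change -0.17 ± 0.086 SE, limma adjusted p = 0.15). Its other feature, with a mean of 5.40, had the opposite sign (0.15).

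The 2 transcription regulators went apart. Myocd, myocardin, read 8.11, 8.14 and 8.38 at day 15 and 7.46, 7.30 and 7.33 at day 30 (log2 change -0.85 ± 0.074 SE, limma adjusted p = 2.4e-06), 0.555 of its day 15 level. Srf, its DNA-binding partner, read 8.49, 8.52 and 8.56 and then 8.65, 8.70 and 8.70 (log2 change 0.16 ± 0.056 SE, limma adjusted p = 0.044). The values of Srf did not overlap, but the call ended in a fit to the 6 wild type arrays alone (adjusted p = 0.053), with the replicate number as a block (0.069) and without any 1 of the 6 wild type arrays (0.063 to 0.11). It also ended without knockout replicate 1 (0.050) or 3 (0.057) at day 15 or replicate 2 at day 30 (0.052). Under the other settings of the same fit the adjusted p ranged from 0.0024 to 0.044.

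**Figure D2:**
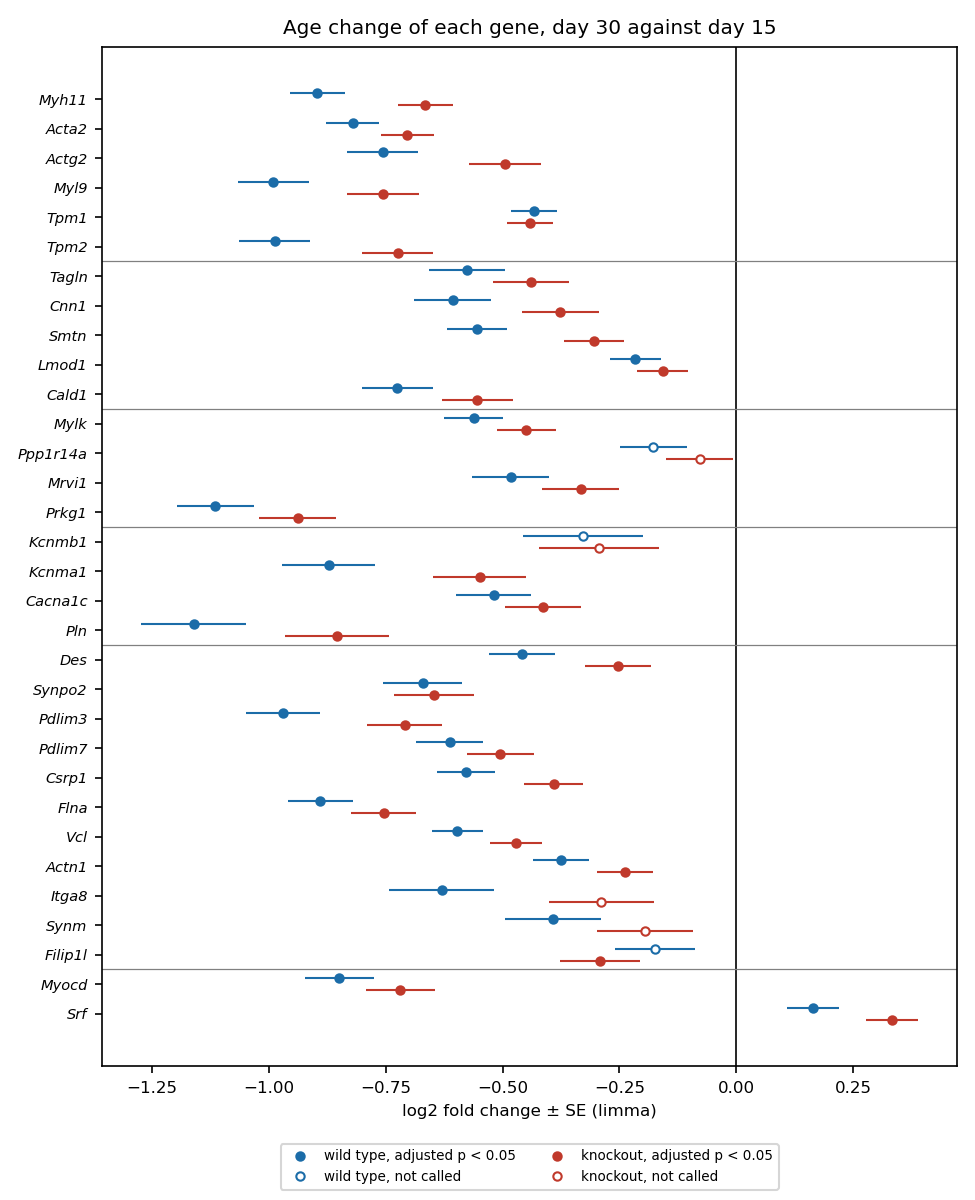
Log2 fold change (x axis) from day 15 to day 30 of each gene (y axis, grouped by role), with SE bars, in wild type (blue) and knockout (red), from limma on all 12 arrays. Filled points passed an adjusted p of 0.05. Pln (-1.16) and Prkg1 (-1.12) lie farthest left in wild type, and Srf lies to the right of 0 in both genotypes.

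Most muscle genes fell with age in the knockout duodenum too. There 27 of 32 were lower, 1 was higher and 4 were not called, with a median of -0.45 against 0.026 over all genes. Over all genes 31.0% were called, 17.2% lower and 13.8% higher. The ages did not overlap for 30 genes that were lower and 1 that was higher, against 22.0% and 20.9% of all genes. In both genotypes 26 of the 32 genes were called lower and 1, Srf, higher, against 13.2% and 8.74% of all genes. The age changes of the genotypes share no arrays, but each gene's variance estimate is common to both. Myh11 read 12.19, 12.09 and 12.17 at day 15 and 11.47, 11.51 and 11.48 at day 30 (log2 change -0.67 ± 0.059 SE, limma adjusted p = 2.8e-06). Acta2 read 12.76, 12.72 and 12.84 and then 12.04, 12.09 and 12.09 (log2 change -0.70 ± 0.057 SE, limma adjusted p = 1.2e-06), and Actg2 read 11.54, 11.40 and 11.62 and then 11.04, 11.04 and 11.00 (log2 change -0.50 ± 0.077 SE, limma adjusted p = 2.9e-04). The ages did not overlap in any of the 3.

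The steepest falls in knockout were those of Prkg1, Pln, Myl9 and Flna. Prkg1 read 8.06, 8.03 and 8.12 at day 15 and 7.04, 7.24 and 7.10 at day 30 (log2 change -0.94 ± 0.083 SE, limma adjusted p = 2.6e-06). Pln read 8.36, 8.00 and 8.36 and then 7.24, 7.49 and 7.43 (log2 change -0.85 ± 0.11 SE, limma adjusted p = 7.5e-05), and Myl9 11.59, 11.48 and 11.69 and then 10.83, 10.83 and 10.82 (log2 change -0.76 ± 0.077 SE, limma adjusted p = 8.7e-06). These day 30 levels were 0.521, 0.553 and 0.592 of those at day 15. Myocd read 8.09, 7.95 and 8.05 and then 7.32, 7.32 and 7.29 (log2 change -0.72 ± 0.074 SE, limma adjusted p = 1.0e-05), and Srf 8.45, 8.33 and 8.43 and then 8.81, 8.76 and 8.66 (log2 change 0.33 ± 0.056 SE, limma adjusted p = 5.5e-04), again in opposite directions and without overlap. The genes not called lower in knockout, beside Srf, were Itga8, Kcnmb1, Synm and Ppp1r14a, with log2 fold changes of -0.29, -0.29, -0.20 and -0.079. Filip1l was lower (log2 change -0.29 ± 0.086 SE, limma adjusted p = 0.02), a call not made in wild type. It ended without knockout replicate 2 (0.052) or 3 (0.054) at day 15 or replicate 1 at day 30 (0.087), with the mean of both features (0.083) and under quantile normalization (0.055). The difference between its age changes was not called (limma adjusted p = 0.88). The fall of Des (log2 change -0.25 ± 0.071 SE, limma adjusted p = 0.015) was not called without knockout replicate 3 at day 15 (0.074) or at day 30 (0.061). That of Lmod1 (log2 change -0.16 ± 0.055 SE, limma adjusted p = 0.045) sat at the threshold and was not called in 14 alternatives, with adjusted p up to 0.15. Kcnma1 fell by 0.55 on its brighter feature, and with the mean of both features its change was -0.20 and not called (limma adjusted p = 0.10).

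The size of the age change differed between members. For 24 genes the change was set against the mean of 8 core contractile genes (Myh11, Acta2, Actg2, Tagln, Cnn1, Des, Smtn and Lmod1), which was -0.61 in wild type and -0.42 in knockout, by fitting each gene's log2 value minus the core mean of its array. The 8 core genes themselves ran from -0.90 (Myh11) to -0.22 (Lmod1) in wild type and from -0.70 (Acta2) to -0.16 (Lmod1) in knockout. A gene beyond the core mean thus need not have fallen further than each core gene. In wild type 8 of the 24 fell further than the core mean and 7 fell less or rose. Of 19930 genes outside the core, 2.07% and 91.8% did so. The 8 were Pln (-0.55 beyond the core), Prkg1 (-0.50), Myl9 (-0.38), Tpm2 (-0.38), Pdlim3 (-0.36), Flna (-0.28), Kcnma1 (-0.26) and Myocd (-0.24), with limma adjusted p from 4.8e-05 to 0.015. The 7 were Srf (0.77), Filip1l (0.44), Ppp1r14a (0.43), Kcnmb1 (0.28), Actn1 (0.24), Synm (0.22) and Tpm1 (0.18), with adjusted p from 2.0e-07 to 0.032. That count of 7 was 4 without wild type replicate 1 at day 15, where Tpm1, Kcnmb1 and Synm lost their calls. Myocd lost its call without wild type replicate 3 at day 15 (0.082) or replicate 2 at day 30 (0.076). Kcnma1 turned to 0.21 above the core when both its features were averaged (limma adjusted p = 0.016), which gave 7 genes that fell further and 8 that fell less or rose.

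In knockout 8 of the 24 fell further than the core mean and 4 fell less or rose. Of the genes outside the core, 3.36% and 83.5% did so. Synpo2 (-0.22, limma adjusted p = 0.011) was among those that fell further and Kcnma1 was not, and the other 7 were called in both genotypes. The 4 that fell less or rose were Srf (0.76), Ppp1r14a (0.35), Synm (0.23) and Actn1 (0.19), all 4 called in both genotypes. Over the genes outside the core, 1.79% fell further and 83.0% fell less or rose in both genotypes. The count of 4 was 2 without knockout replicate 2 at day 30, where Synm and Actn1 lost their calls, and 6 with features averaged, when Kcnma1 (0.23) and Filip1l (0.23) joined. Probes flatten near background and at saturation, and the part of this in the differences in size was not tested.

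On some arrays most muscle genes lay on the same side of their group mean. On knockout replicate 2 at day 15, 30 of the 32 genes lay below their group mean, by 0.092 on average, and on replicate 3 of that group 30 lay above it, by 0.078. In wild type at day 15 replicate 3 had 29 genes above the group mean, and at day 30 replicate 1 had 26 below it. The other arrays were less one-sided, down to 16 above and 16 below on wild type replicate 3 at day 30. Deviations within a group sum to 0 for each gene, so the counts of its arrays are not independent. Over all genes, between 46.2% and 55.8% of genes lay above the group mean on an array. Other tissues of the segment also varied between these arrays. On knockout replicate 2 at day 15 the mean of 7 pancreas acinar genes lay 0.29 below its group mean, and on wild type replicate 1 at day 30 it lay 0.32 below, while it lay 0.23 above on knockout replicate 3 and 0.020 below on wild type replicate 3 at day 15. The mean of 10 fibroblast genes lay 0.094 below its group mean on knockout replicate 2 and 0.049 above it on replicate 3 at day 15, and 0.14 below on wild type replicate 1 at day 30, the same side as the muscle genes on these arrays. On wild type replicate 3 at day 15 it lay 0.0003 below. The mean of 8 stomach and Brunner gland genes lay below its group mean on all of these arrays, which were picked by their muscle values. It lay farthest above its group mean on arrays not among them, by 0.52 on knockout replicate 1 at day 15 and 0.51 on wild type replicate 2 at day 30. It was lower by 0.22 and 0.30 on knockout replicates 2 and 3 and by 0.11 on wild type replicate 3 at day 15. On wild type replicate 1 at day 30 it was lower by 0.19. The part of this in the muscle values was not tested.

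At day 15, 9 of the 32 muscle genes were called lower in knockout than in wild type and none higher, where 3.83% of all genes were called, 2.03% lower and 1.81% higher. All 32 log2 fold changes were below 0, as were those of 10778 of all 19938 genes, with a median of -0.20 against -0.0097 over all genes. That median lies beside one of -0.60 for the age change in wild type. The wild type arrays of that age also enter the age change, so the comparisons are not independent. The mean over the 32 genes read 9.83, 9.86 and 9.94 in wild type and 9.67, 9.57 and 9.74 in knockout, without overlap. Single genes did not overlap in 24 of 32 cases, each lower in knockout, against 12.2% of all genes lower and 9.09% higher.

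Itga8, the integrin chain, differed most, at 8.56, 8.82 and 8.75 in wild type and 8.20, 8.19 and 8.37 in knockout (log2 change -0.46 ± 0.11 SE, limma adjusted p = 0.043). Pln read 8.69, 8.60 and 8.76 in wild type and 8.36, 8.00 and 8.36 in knockout (log2 change -0.45 ± 0.11 SE, limma adjusted p = 0.048), with knockout replicate 2 the lowest. Myh11 read 12.42, 12.39 and 12.56 and 12.19, 12.09 and 12.17 (log2 change -0.31 ± 0.059 SE, limma adjusted p = 0.012), 0.808 of the wild type level. The other called genes were Prkg1 (-0.33), Pdlim3 (-0.32), Myl9 (-0.30), Cald1 (-0.30), Tpm2 (-0.30) and Csrp1 (-0.25), with limma adjusted p from 0.046 to 0.049. Csrp1 read 11.71, 11.70 and 11.71 in wild type and 11.48, 11.34 and 11.55 in knockout, with a narrow spread in wild type. Acta2 (-0.29 to -0.046), Tagln (-0.39 to -0.039), Cnn1 (-0.40 to -0.038) and Des (-0.36 to -0.057) were not called, but the 95% intervals of their log2 differences, given in parentheses, lay below 0. Of the core genes, only Actg2 had an interval that crossed 0 (log2 change -0.14, interval -0.30 to 0.031, limma adjusted p = 0.46).

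These day 15 calls sat near the threshold. Only Myh11 (limma adjusted p = 0.012) was below 0.04, and no gene kept its call in all alternatives. Without knockout replicate 1, 2 or 3 at day 15 the count of 9 was 2, 0 and 3. It was 5, 1 and 0 without wild type replicate 1, 2 or 3 at day 15. The day 30 arrays enter only through the variance, and the count was 1, 3 and 3 without knockout replicate 1, 2 or 3 of that age and 6, 6 and 1 without wild type replicate 1, 2 or 3. It was 1 in the 6 day 15 arrays alone, 1 with arrays centred on their medians and 2 with the replicate number as a block. It was 9 to 12 under the other settings, highest with an intensity trend in the variance, and 4 further genes were called at least once. The median stayed between -0.25 and -0.15 when single arrays were left out. Beside this, the mean of 8 stomach and Brunner gland genes ranged from 10.91 to 11.16 in wild type and 10.23 to 11.05 in knockout at day 15, with 3 of 8 genes lower, and that of 7 pancreas acinar genes from 13.10 to 13.14 and 12.42 to 12.94, with 0 of 7 called (limma, 3 of 7 at an unadjusted p below 0.05). Their part in the muscle difference was not tested.

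At day 30 no muscle gene was called between genotypes by limma. The median log2 fold change was -0.061 against -0.0038 over all genes, and 26 of 32 values were below 0, as were 10326 of 19938. An unadjusted p below 0.05 was found for 3 of 32 genes and for 11.2% of all genes. Over all genes 1.98% were called, 0.943% lower and 1.04% higher. The mean over the 32 genes read 9.19, 9.33 and 9.26 in wild type and 9.20, 9.23 and 9.16 in knockout, and the genotypes overlapped. Myh11 had a difference of -0.075 with a 95% interval of -0.20 to 0.053, Acta2 one of -0.053 (-0.18 to 0.070) and Actg2 one of 0.13 (-0.041 to 0.29). The genes with the lowest p were Synpo2, at 9.07, 9.35 and 9.20 in wild type and 9.04, 8.96 and 8.87 in knockout (log2 change -0.25 ± 0.085 SE, limma adjusted p = 0.22), and Filip1l (log2 change -0.22 ± 0.086 SE, limma adjusted p = 0.3). Tpm1 was the third (log2 change -0.11 ± 0.049 SE, limma adjusted p = 0.44). In these 3 genes and Lmod1 the genotypes did not overlap, each lower in knockout, 4 of 32 against 7.49% of all genes lower and 7.95% higher.

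**Figure D3:**
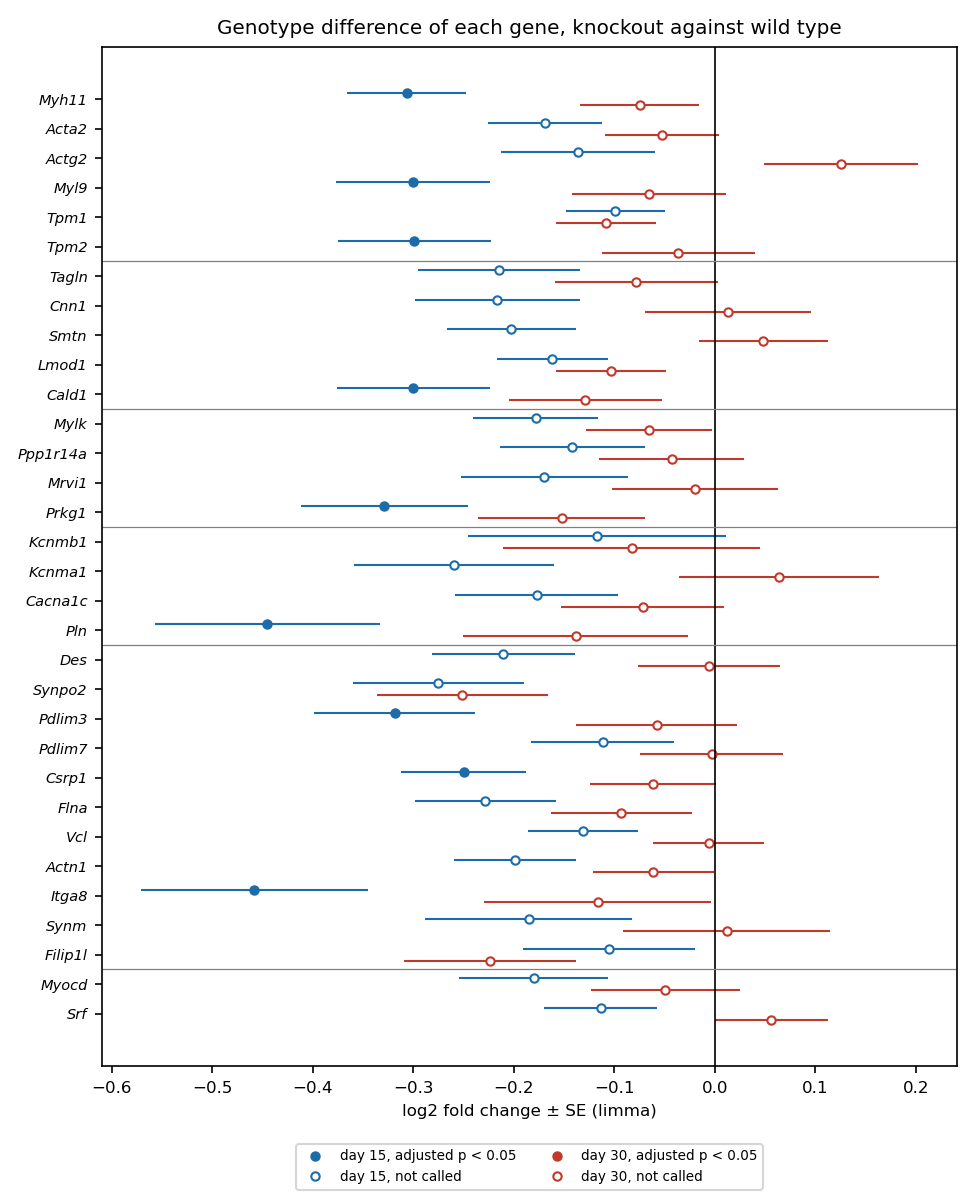
Log2 fold change (x axis) of knockout against wild type for each gene (y axis, grouped by role), with SE bars, at day 15 (blue) and day 30 (red), from limma on all 12 arrays. Filled points passed an adjusted p of 0.05. All 32 day 15 points lie left of 0 and 9 are filled, while no day 30 point is filled.

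Whether the age change itself differed between genotypes was tested directly. It was called for 0 of 32 genes by limma, and for 0.456% of all genes, and 6 of 32 had an unadjusted p below 0.05 where 8.85% of all genes did. The median difference, knockout minus wild type, was 0.16, meaning a smaller fall in knockout or, for Srf, a larger rise, and 30 of 32 values were positive, as were 10561 of 19938 over all genes. The largest among core genes were Actg2 (0.26, 95% interval 0.026 to 0.50), Smtn (0.25, 0.053 to 0.45) and Myh11 (0.23, 0.051 to 0.41), with limma adjusted p of 0.5, 0.39 and 0.39. This difference is made of the same arrays as the comparisons above.

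Other genes of muscle contraction and its anchoring were read from further lists. With age in wild type, 12 of 23 genes of contraction and its signalling were lower and 1 higher (median -0.23). Among them were the muscarinic acetylcholine receptor Chrm2 (-1.05), the nitric oxide receptor subunits Gucy1b1 (-0.99) and Gucy1a1 (-0.86) and the endothelin receptor Ednrb (-0.71). Of 38 genes of adhesion, caveolae and filaments, 30 were lower and 3 higher (median -0.50). The integrin activator Fermt2 (-1.14), the gap junction gene Gja1 (-1.08) and the amine oxidase Aoc3 (-0.95) were among those with the smallest p. The 3 higher, named after their values were seen, were Ckb (0.62), Zyx (0.48) and Tes (0.31). In knockout 10 of the 23 were lower and 1 higher, and 29 of the 38 were lower and 2 higher. Over all genes 17.0% were called lower and 12.3% higher with age in wild type, and 17.2% and 13.8% in knockout.

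Of 17 transcription regulators of gut mesenchyme and muscle, 8 were lower and 1 higher with age in wild type, where 17.0% and 12.3% of all genes were. Foxf1 (-0.73) and Foxf2 (-0.74), forkhead factors of gut mesenchyme, and Tcf21 (-0.96) fell, and Klf4, which is also made by the gut epithelium, rose (0.82). The same counts, 8 and 1, were found in knockout, beside 17.2% and 13.8% of all genes. At day 15, Klf4 was the only one of the 17 called between genotypes, higher in knockout (log2 change 0.47 ± 0.084 SE, limma adjusted p = 0.0075). At that age Chrm3 (-0.39), Gucy1a1 (-0.33), Stim1 (-0.25) and Chrm2 (-0.30) were lower in knockout, 4 of 23 genes of contraction. Of the adhesion list 9 of 38 were lower, led by Aoc3 (-0.45), and Ldb3, a Z-disc gene, was higher (0.31). Over all genes 2.03% were called lower and 1.81% higher in knockout at day 15, and 0.943% and 1.04% at day 30. Ldb3 was the only one of the 38 called at day 30, again higher in knockout (0.29, limma adjusted p = 0.012), a call that ended without knockout replicate 1 at day 30 (0.062) and in the 6 day 30 arrays alone (0.076). Of the 24 genes of all lists called at day 15, 16 lost their call in at least 1 alternative.

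Genes of other cells of the muscle wall and stroma fell with age as well. All 7 genes of interstitial cells of Cajal, the pacemakers of gut muscle, and of PDGFRA+ cells were lower in wild type (median -0.58), among them Pdgfra (-0.98), Etv1 (-0.88), Kit (-0.58) and Kitl (-0.44). All 7 were lower in knockout too. Over all genes 17.2% were called lower in knockout and 17.0% in wild type. Of 8 pericyte genes 6 were lower (median -0.49), of 10 fibroblast genes 8 (median -0.70), of 10 endothelial genes 8 (median -0.63) and of 14 genes of enteric neurons and glia 9 (median -0.44). The muscle median of -0.60 thus lay within the range of these lists, and no test set it against them. The list means per array in wild type were 10.51, 10.51 and 10.51 at day 15 and 9.77, 10.03 and 9.94 at day 30 for fibroblasts. For endothelium they were 8.87, 8.94 and 8.94 and then 8.35, 8.41 and 8.36.

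Lymphoid markers rose with age, while the mean of the epithelial markers changed by only 0.047 in wild type and 0.027 in knockout. Of 10 epithelial genes 6 were higher and 2 lower with age in wild type, where 12.3% and 17.0% of all genes were. Their means per array were 11.97 to 12.01 at day 15 and 12.01 to 12.07 at day 30. In knockout 3 of the 10 were higher and 2 lower, beside 13.8% and 17.2% of all genes. All 7 lymphoid genes were higher in wild type, with means of 6.44 to 6.77 and 9.39 to 9.40. Of 12 striated muscle genes 2 were lower, Actc1 and Ckm, and of 6 mesothelial genes 1 was higher, Krt19, which epithelium also makes, with list medians of 0.032 and 0.014. The part of these other cell types in the muscle result was not tested. At day 15 the knockout had medians of -0.26 for fibroblasts (1 of 10 lower), -0.17 for pericytes (1 of 8 lower), -0.17 for the interstitial cells (0 of 7 called by limma, 5 of 7 at an unadjusted p below 0.05) and -0.080 for endothelium (0 of 10 called, 2 of 10 at an unadjusted p below 0.05), beside -0.20 for the muscle genes. Enteric neurons and glia had a median of -0.058 (1 of 14 called higher and 1 lower). Striated muscle and mesothelium had medians of -0.039 and 0.034, with 0 of 12 and 0 of 6 called by limma (3 and 0 at an unadjusted p below 0.05). Over all genes 15.2% had an unadjusted p below 0.05 in that comparison, 2.03% were called lower and 1.81% higher. The lymphoid means were 6.44, 6.73 and 6.77 in wild type and 7.10, 6.85 and 7.08 in knockout at day 15, without overlap, and 2 of 7 lymphoid genes, Igha and Gzmb, were called higher in knockout. Their part in the muscle difference was also not tested.

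**Figure D4:**
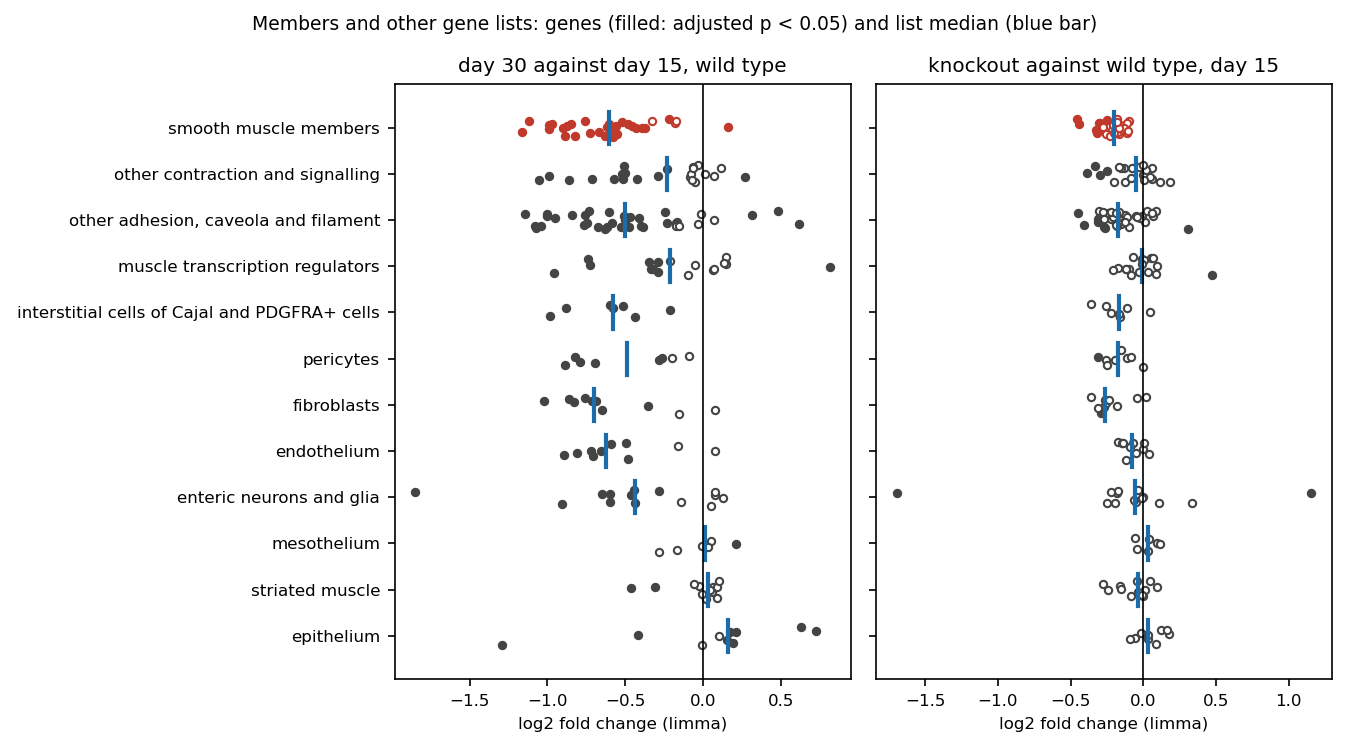
Log2 fold change (x axis) of single genes (points) in the 32 muscle genes (red) and 11 other lists (grey), with list medians (blue bars), for day 30 against day 15 in wild type (left) and knockout against wild type at day 15 (right). Filled points passed a limma adjusted p of 0.05. In the left panel the medians of muscle genes (-0.60), fibroblasts (-0.70) and endothelium (-0.63) lie left of 0 and that of epithelium (0.16) right of it.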

How the data were processed

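Per the submitters' processing notes, the authors made the deposited log2 values by RMA (background correction, quantile normalization and summary over probes) in Affymetrix Expression Console, version 1.1. The log base was taken as 2 from that method and the values' range. Of 35557 features, 21789 were paired with 1 gene symbol, 1621 with several and 12147 with none; the highest-mean feature stood for each of 19938 genes. For the array annotation, a genome build was not stated in the sources used. No test can show a change shared by most genes, which quantile normalization removes. The number of arrays limits the precision.

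Tests used limma (version 3.58.1, run under R 4.3.3) on 4 group means over all 12 arrays (8 residual degrees of freedom, eBayes), with Benjamini-Hochberg adjustment over all genes and a threshold of 0.05. Errors are SEs of limma. The code was tested on simulated data. The members and all lists were chosen with earlier results of these data known. All members are named, and of each list up to 4 genes with the smallest p. Listed genes without a measured 1-symbol feature were not analysed here. Alternatives changed the variance model, the weights, the arrays, the feature per gene, a filter on dim genes, the scaling and a replicate block, and left out each array. Replicate numbers were not taken as pairs. The mean correlation of same-numbered deviations ran from -0.098 to 0.20 over the pairs of groups, and the lowest single value was -0.25. It was 0.17 between the ages in wild type and 0.20 between the genotypes at day 15. Whether same-numbered arrays were handled together was not tested.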

Additional observations from a re-analysis of the deposited data

Results flagged for a closer look

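Of the genes read here, 1 had an age change that differed between genotypes by limma's test of that difference. S100b, a glial gene of the list of enteric neurons and glia, fell by 1.85 on the log2 scale with age in wild type and had a log2 fold change of -0.20 in knockout, a difference of 1.645 (SE 0.16, limma adjusted p = 4.7e-04). It was already lower in knockout at day 15 (log2 change -1.70), and at day 30 it read a dim 6.21 in wild type and 6.16 in knockout. The glial genes Sox10 (-0.015) and Gfap (0.086) of the same list had no called difference (limma adjusted p = 0.99 and 0.93). No gene of the 32 muscle genes met this condition, and groups of 3 arrays were too small for a test of single outlying arrays.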

How the results depend on the processing

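Among the 32 muscle genes, 26 of the 29 age calls in wild type and 24 of the 28 in knockout were made in all alternatives, 0 of the 9 genotype calls at day 15 were, and no called fold change of theirs turned. Lmod1, Srf and Synm lost a wild type call at least once, and Des, Filip1l, Kcnma1 and Lmod1 a knockout call. Leaving out single arrays gave 27 to 29 genes lower with age in wild type, 24 to 28 in knockout and 0 to 6 lower in knockout at day 15; the count of 1 higher in wild type ranged from 0 to 1. Relative to the core mean, the 7 members higher in wild type ranged from 4 to 7 over left-out arrays and from 6 to 8 over the other alternatives, and the 4 in knockout from 2 to 5 and from 3 to 6. With features averaged, Kcnma1 turned from -0.26 to 0.21 in wild type and from -0.12 to 0.23 in knockout relative to the core. The count higher with age in wild type was 0 with the replicate block and 0 with only the arrays of the comparison. The count lower in knockout at day 15 was 1 with arrays centred on their median, 2 with the replicate block and 1 with only the arrays of the comparison, and up to 12 with an intensity trend; the cause was not tested. At day 30 and for the difference in age change the count was 0 in all alternatives. The replicate block, whose numbers are not known to pair the arrays, gave 29 genes lower with age in wild type and 26 in knockout. Centring or quantile normalization moved the median of all genes by at most 0.059. Called list genes lost the call at least once in 15 of 117 cases for age in wild type, 15 of 109 in knockout 16 of 24 between genotypes at day 15 and 4 of 4 at day 30, and Krt8 turned from 0.15 to -0.013 with age in wild type under quantile normalization over the tested genes.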
